A study of Mus musculus with 9 samples.

Results

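The mannose receptor gene Mrc1, the class A scavenger receptor genes Msr1 and Marco, and Cd68, which encodes the endolysosomal glycoprotein macrosialin, were followed across 9 Affymetrix MG-U74Av2 arrays. Every probe set whose platform symbol was exactly one of these 4 genes was taken, which gave 6 of the 12488 probe sets on the array: 1 for Mrc1 (103226_at), 2 for Msr1 (94792_at and 94140_at), 1 for Marco (102974_at) and 2 for Cd68 (103016_s_at and 162173_i_at). The cells were CD11b+ splenocytes of female mice, 8 to 12 weeks old, and each value is a MAS5 signal, a microarray brightness on a linear scale. There were 3 groups of 3 arrays: cells of tumor-bearing mice kept for 24 h in complete medium (cultured), cells of tumor-bearing mice at time 0 (fresh), and cells of tumor-free mice, which were not cultured. The labels used here name no tumor, no strain and no pooling. They do not say that replicates were separate animals, so every p-value reflects the scatter of these 9 samples alone, part or all of which may be technical.

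These receptors take up particles and molecules from outside the macrophage. The mannose receptor, CD206, is a C-type lectin that captures glycoproteins ending in mannose, fucose or N-acetylglucosamine and brings them to endosomes. It is widely used as a mark of macrophages stimulated with IL-4 or IL-13, and in the mouse spleen it is found on red pulp macrophages. The class A scavenger receptors are trimers with a collagen-like stalk that bind modified lipoproteins and bacteria; Marco is a known marker of marginal zone macrophages of the spleen. Macrosialin belongs to the lysosome-associated membrane protein family and sits mainly in late endosomes and lysosomes of mononuclear phagocytes.

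The DNA just upstream of Mrc1, the gene with the largest differences here, is shown beside that of Cd68, whose differences were smaller. Both are the 250 bases before the annotated start in RefSeq (GRCm38.p6), read 5′ to 3′ on the strand of the gene: chr2:14229164-14229413 on the plus strand for Mrc1 and chr11:69666171-69666420 on the minus strand for Cd68. Capitals mark GAGGAA, a purine-rich sequence of the kind bound by PU.1, the myeloid transcription factor encoded by Spi1, or TTCCTC, the same letters on the other strand.
Mrc1: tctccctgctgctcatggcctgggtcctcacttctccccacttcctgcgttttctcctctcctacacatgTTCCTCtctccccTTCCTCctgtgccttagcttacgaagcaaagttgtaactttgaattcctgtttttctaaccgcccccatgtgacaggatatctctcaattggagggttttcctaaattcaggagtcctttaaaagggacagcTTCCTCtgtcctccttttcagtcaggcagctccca
Cd68: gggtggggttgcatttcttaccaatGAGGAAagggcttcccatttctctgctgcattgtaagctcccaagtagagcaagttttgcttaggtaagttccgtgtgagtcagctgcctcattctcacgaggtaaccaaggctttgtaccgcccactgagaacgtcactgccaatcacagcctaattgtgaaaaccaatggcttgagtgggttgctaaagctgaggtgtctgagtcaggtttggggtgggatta
The Mrc1 stretch held 3 copies, all as TTCCTC and none overlapping, and the Cd68 stretch held 1, as GAGGAA. Of 32851 upstream stretches of the same length, 23.3% held at least 1 copy on either strand and 0.429% held at least 3. Such a match describes the letters only, and no binding was measured.

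In each group, the array with the lowest mean correlation with the other 2 is said here to stand apart. With 3 arrays a group, 1 always has the lowest, and this rule was set after the data were seen. The lowest correlation with an array of the same group, across tested probe sets, was 0.824 for tumor-free 1, 0.874 for fresh 3 and 0.85 for cultured 3, whereas the other 2 arrays of each group correlated at 0.929 to 0.957. The beta-actin 3'/5' signal ratio, a measure of RNA integrity, was 2.27, 2.36 and 1.16 on cultured arrays, 1.59, 1.58 and 1.35 on fresh arrays and 2.57, 0.994 and 1.19 on tumor-free arrays. It was thus high on 2 of the 3 cultured arrays and on tumor-free 1, and its part in the results below was not tested. The mean log2 signal of the spike-in controls, bacterial transcripts added to each sample, was cut at its median to divide the arrays into a high class (tumor-free 1, fresh 1 and 2, cultured 1 and 2) and a low class (tumor-free 2 and 3, fresh 3, cultured 3). The division is no labelled batch and follows no gap, since fresh 2 at 9.86 and tumor-free 2 at 9.77 lie on either side of it, and differences within each class are given below as values with no test. Itgam, the gene of CD11b itself, had signals of 363, 333 and 954 on cultured arrays, 392, 414 and 585 on fresh arrays and 373, 244 and 256 on tumor-free arrays, and it passed the test in no comparison (limma log2 differences 0.09 to 0.76, adjusted p = 0.404 to 0.943).

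Mrc1 was lowest in cultured cells, intermediate in fresh cells and highest in tumor-free cells, with no overlap between groups. Its signal was 22.7, 16.8 and 21.1 in cultured cells (20.2 ± 3.08; SD, n = 3), 109.7, 98.3 and 195 in fresh cells (134.5 ± 53.0) and 861, 322 and 365 in tumor-free cells (515.9 ± 299.5). The cultured arrays lay closest together, and tumor-free 1 was the highest of all 9. Since the samples are bulk RNA, fewer Mrc1-expressing cells and less Mrc1 RNA per cell cannot be told apart. The cultured signals are close to the offset of 7.83 that was added before log2 was taken, and without detection calls it is unknown whether they lie above background.

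**Figure D1:**
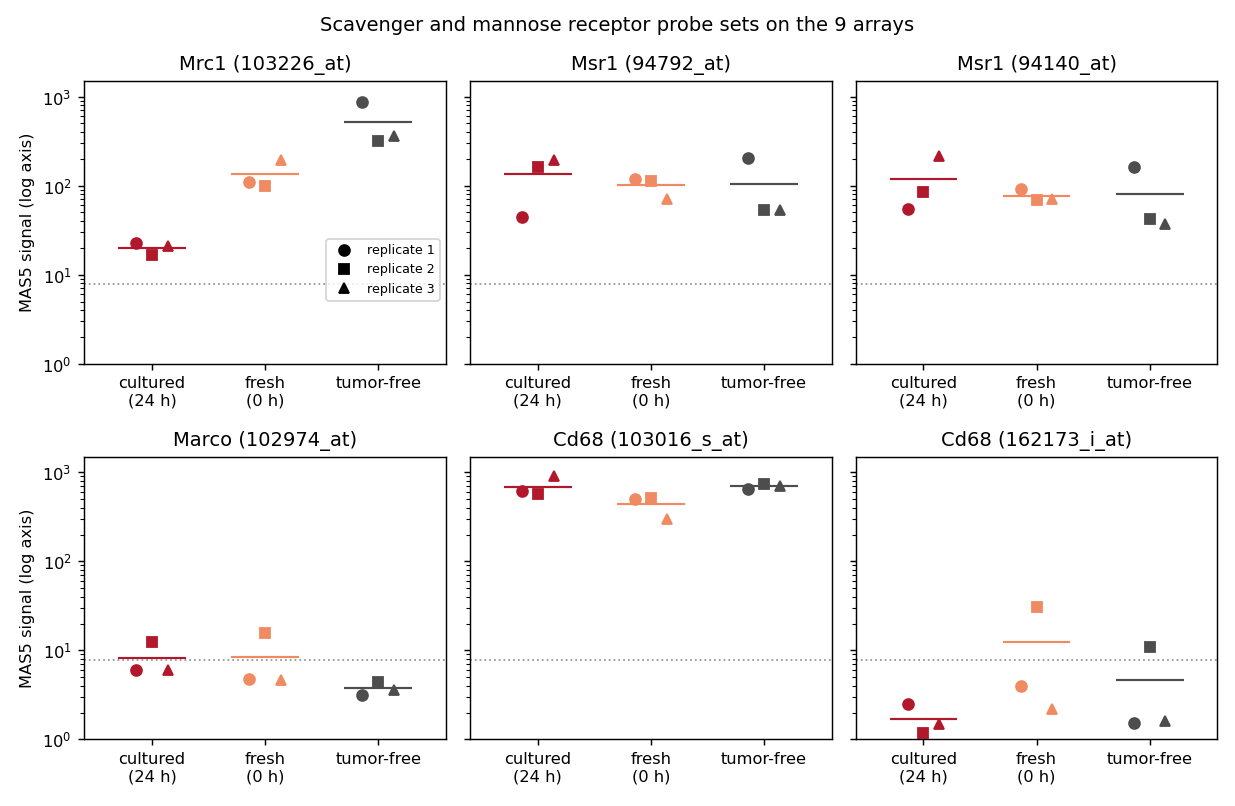
MAS5 signal (log axis) of the 6 probe sets on each of the 9 arrays, by group, with symbols for the replicate number, a line at the group mean and a dotted line at the offset of 7.83. Mrc1 lies between 16.8 and 22.7 in cultured cells, 98.3 and 195 in fresh cells and 322 and 861 in tumor-free cells, while Marco and the second Cd68 probe set lie near or below the offset on most arrays.

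In fresh cells of tumor-bearing mice, Mrc1 was 3.48-fold lower than in tumor-free cells on the log2(signal + 7.83) scale (log2 difference -1.80 ± 0.39, SE; 95% interval -2.65 to -0.95; limma adjusted p = 0.0433). It was the only one of 4 tested member probe sets to pass, where 1.9% of the 8695 probe sets tested did so and 0.955% passed as lower. Groups that did not overlap, with fresh cells lower, were seen for 13.1% of all tested probe sets. The adjusted p lay just under the threshold of 0.05. The 21 alternative settings include the fits within each spike-in class, whose p-values are not read, and 11 of the 21 lost the call. Of the single arrays, leaving out tumor-free 2 or 3, fresh 1 or 2, or cultured 1 or 2 ended it, with an adjusted p of up to 0.181. The direction held throughout, but since the groups do not overlap, leaving out arrays could not have turned it. The difference was -2.96 within the high spike-in class and -0.79 within the low class, and -1.84 with the class as a block. The high class holds tumor-free 1 as its only tumor-free array, and the low class fresh 3 as its only fresh array. Without the 3 arrays that stand apart it was -1.65.

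After 24 h in culture, Mrc1 was 4.89-fold lower than in fresh cells (log2 difference -2.29 ± 0.39, 95% interval -3.14 to -1.44, adjusted p = 0.0121). No other tested member passed, while 2.69% of all tested probe sets did and 1.17% passed as lower. Cultured values lay wholly below fresh values for 8.81% of them. Only leaving out cultured 2 ended the call among the 9 arrays left out in turn (adjusted p = 0.0602), with the difference then at -2.20. Within the high and the low spike-in class the difference was -2.03 and -2.81.

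Against tumor-free cells, the cultured cells had the largest Mrc1 difference of the 3 comparisons, 17.0-fold on the offset scale (log2 difference -4.09 ± 0.39, 95% interval -4.94 to -3.24, adjusted p = 0.00142). As a ratio of mean signals with no offset, tumor-free cells were 25.6-fold higher. Mrc1 was again the only member called, beside 1.23% of all probe sets called and 0.644% called as lower. Without overlap, 8.2% of all were lower. This call held in every alternative setting whose p-value is read (those within a spike-in class are not), with differences between -4.99 and -3.46 over all 21. The group means share arrays between comparisons, so the 3 Mrc1 differences are not independent of each other.

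**Figure D2:**
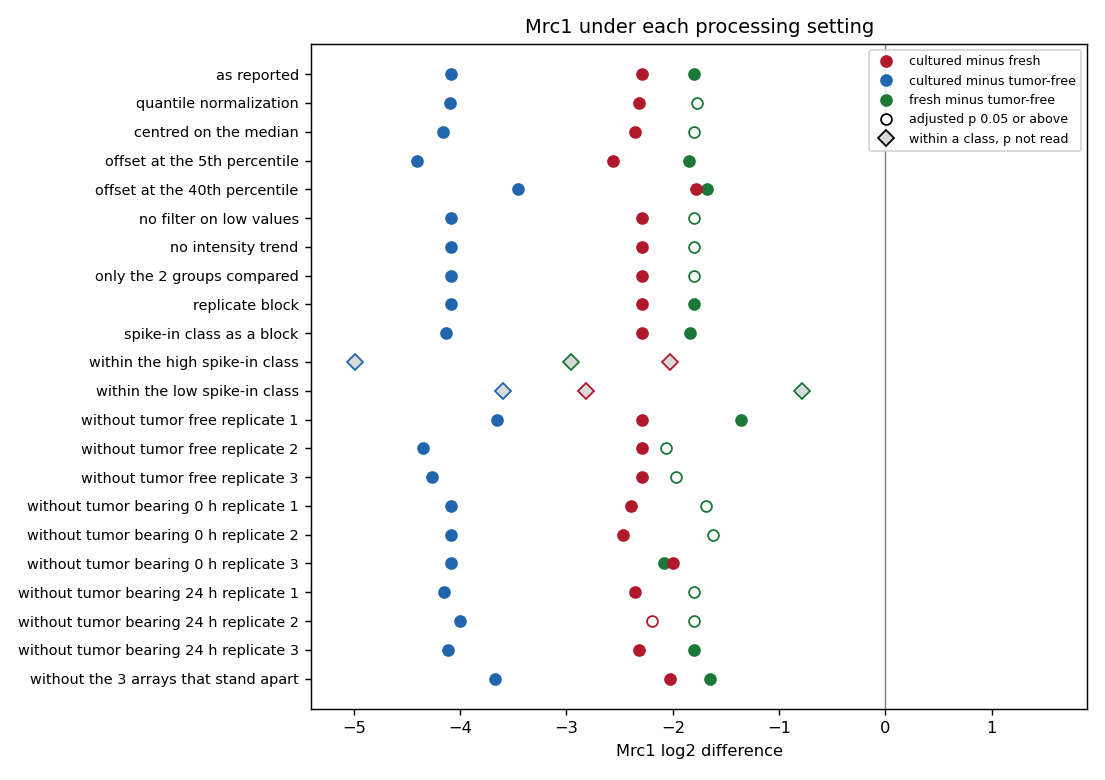
Log2 difference of Mrc1 (horizontal axis) in the 3 comparisons under the reported setting and each of 21 alternatives (rows), with filled circles where the adjusted p was below 0.05, open circles where it was not, and grey diamonds for values within a spike-in class. Every difference is below 0; the fresh minus tumor-free values are open in 11 rows and the cultured minus tumor-free values in none.

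The 2 Msr1 probe sets gave no call in any comparison, and the spread inside the groups was as wide as anything between them. Probe set 94792_at read 44.1, 163.9 and 196 in cultured cells (134.8 ± 80.2), 120.1, 111.6 and 70.1 in fresh cells (100.6 ± 26.7) and 206, 52.7 and 52.8 in tumor-free cells (103.8 ± 88.5). Probe set 94140_at read 54.9, 85.8 and 215 in cultured cells (118.7 ± 85.2), 91.5, 68.8 and 70.8 in fresh cells (77.0 ± 12.6) and 161.8, 42.0 and 36.9 in tumor-free cells (80.3 ± 70.7). All 3 groups overlapped for both. The highest tumor-free value of both probe sets was on tumor-free 1 and the highest cultured value on cultured 3, both among the arrays that stand apart. Over the 9 arrays the log2 values of the 2 probe sets followed each other with r = 0.890, a description over arrays that share their RNA and their scaling.

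Msr1 in fresh against tumor-free cells differed by 0.20 ± 0.58 (95% interval -1.09 to 1.49, limma adjusted p = 0.881) and 0.22 ± 0.55 (-0.99 to 1.43, adjusted p = 0.859) for 94792_at and 94140_at. Those intervals span changes of more than 1 on the log2 scale either way, so a moderate change of Msr1 could not be told from none with 3 arrays a group. The sign rested on single arrays: without tumor-free 1 the differences were 0.81 and 0.83 (adjusted p = 0.386 and 0.312), and without tumor-free 2 they were -0.10 and -0.05. In cultured against fresh cells the differences were 0.20 ± 0.58 (95% interval -1.09 to 1.49, adjusted p = 0.914) and 0.38 ± 0.55 (-0.83 to 1.59, adjusted p = 0.808), and they were -0.17 and -0.14 without cultured 3. Cultured against tumor-free cells gave 0.40 ± 0.58 (-0.89 to 1.70, adjusted p = 0.814) and 0.60 ± 0.55 (-0.61 to 1.81, adjusted p = 0.677), with 1.01 and 1.21 without tumor-free 1. The cultured minus tumor-free differences were -1.18 and -1.15 within the high spike-in class but 1.75 and 2.24 within the low class. The classes therefore gave opposite signs for Msr1 and the same sign for Mrc1, whose groups do not overlap. Tumor-free 1 alone stands for its group in the high class, and fresh 3 and cultured 3 alone for theirs in the low class. The signs thus rest on single arrays.

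Marco, the other class A receptor, was dim on every array and did not pass the filter on low values. Its signal was 5.98, 12.4 and 6.05 in cultured cells (8.15 ± 3.70), 4.77, 15.6 and 4.70 in fresh cells (8.35 ± 6.27) and 3.19, 4.40 and 3.63 in tumor-free cells (3.74 ± 0.613). Only cultured 2 and fresh 2 lay above the offset. Every cultured and every fresh value was above every tumor-free value, as was the case for 10.3% and 9.34% of the tested probe sets. With no filter the differences were 0.44 (limma adjusted p = 0.584) for cultured and 0.42 (adjusted p = 0.518) for fresh against tumor-free cells. Siglec1 and Nr1h3, the genes on the array from a list of 5 marginal zone macrophage markers, had a summed signal of 74.4 to 92.0 on cultured, 57.3 to 81.0 on fresh and 104.7 to 215 on tumor-free arrays. Most of that sum is Nr1h3 (means 76.7, 59.7 and 158.9), as Siglec1 did not pass the filter on low values.

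Cd68 was measured by 1 bright and 1 dim probe set. The bright one, 103016_s_at, read 613, 569.6 and 899.7 in cultured cells (694 ± 179), 498, 519 and 298 in fresh cells (438 ± 122) and 645, 739 and 699.8 in tumor-free cells (695 ± 47.5). Fresh values lay below those of both other groups without overlap. Of all tested probe sets, 13.1% had fresh values wholly below tumor-free ones and 13.4% had them wholly below cultured ones. The suffix of this probe set marks probes that can match more than 1 transcript, so its signal may not come from Cd68 alone. The dim one, 162173_i_at, read 2.50, 1.17 and 1.48 in cultured, 4.0, 30.9 and 2.20 in fresh and 1.52, 10.8 and 1.59 in tumor-free cells, and was left out of the tests by the filter.

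None of the Cd68 differences passed the test. Fresh cells had a log2 difference of -0.69 ± 0.28 from tumor-free cells (95% interval -1.32 to -0.07), with a limma p of 0.0323 before and 0.247 after adjustment. In cultured against fresh cells it was 0.67 ± 0.28 (95% interval 0.04 to 1.29), with a limma p of 0.0385 before and 0.267 after adjustment. Cultured values lay wholly above fresh ones, as for 13.4% of all tested probe sets. Cultured and tumor-free means were nearly equal (log2 difference -0.03 ± 0.28, 95% interval -0.65 to 0.60, adjusted p = 0.98). Fresh 3 was the lowest array, and without it the fresh minus tumor-free difference was -0.44 and the cultured minus fresh difference 0.41. Without the 3 arrays that stand apart, a setting chosen after seeing the data, the fresh minus tumor-free difference was -0.49 with an adjusted p of 0.0450, but that setting called 24.7% of all probe sets.

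**Figure D3:**
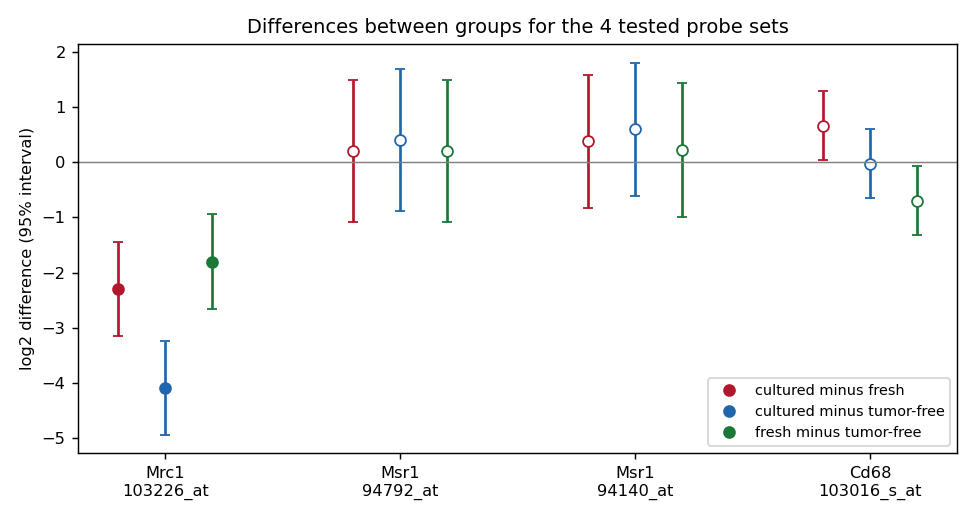
Log2 differences with 95% intervals for the 4 tested probe sets in the 3 comparisons, filled where the adjusted p was below 0.05. The 3 Mrc1 differences (-2.29, -4.09 and -1.80) are filled, and the other 9 are open, with the Msr1 intervals all spanning 0.

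Markers of macrophages were split in how they compared with Mrc1. Of 11 tested macrophage markers, the complement genes C1qa, C1qb and C1qc had group means in the order of Mrc1, lowest in cultured and highest in tumor-free cells, and 8 did not. That order is one of means only. Cultured and fresh values overlapped for C1qa, C1qb and C1qc, unlike for Mrc1. C1qa averaged 92.4 in cultured, 149.3 in fresh and 1608 in tumor-free cells, whereas the protease gene Ctss averaged 7486, 4538 and 5137 and the lysozyme gene Lyz2 6666, 4433 and 4360. Of 4 tested red pulp markers, the adhesion molecule gene Vcam1 (means 47.1, 115.5 and 1449) and Spic, for the transcription factor of red pulp macrophages (54.6, 159.4 and 440), had the order of Mrc1, and Hmox1 and Cd5l did not. Vcam1 had differences of -2.56 in fresh against tumor-free cells and -1.04 in cultured against fresh cells, and Spic of -0.43 and -1.44, none of them called (limma adjusted p = 0.267, 0.711, 0.864 and 0.595). Fresh and tumor-free values overlapped for both Vcam1 and Spic. Vcam1, Spic, Cd5l, Ctss and Lyz2 were singled out after their values were seen.

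Sums over a marker list weigh bright probe sets such as Ctss, Lyz2 and Hmox1 most. The summed signal of the 12 genes on the array from a list of 14 macrophage markers was 16240 to 23730 on cultured arrays, 9331 to 13840 on fresh arrays and 12380 to 21640 on tumor-free arrays. It was higher on every cultured than on every fresh array, the opposite order to Mrc1. The 5 genes measured from 8 red pulp markers summed to 2733 to 3457 on cultured, 1115 to 1272 on fresh and 1759 to 7250 on tumor-free arrays. On tumor-free 1, where Mrc1 was highest, both sums were the lowest of the group, and the macrophage adhesion receptor gene Adgre1 (F4/80) read 50.4 against 337 and 295 on the other tumor-free arrays. Of the 4 tested red pulp genes only Hmox1, for the heme-degrading enzyme, passed: it fell in fresh cells (-1.77, adjusted p = 0.0257) and was higher in cultured than in fresh cells (1.71, adjusted p = 0.0232). Both calls were lost without any 1 fresh array, the first also without tumor-free 2 or 3 and the second also without cultured 1 or 2. In fresh against tumor-free cells 3 of 11 tested macrophage markers fell, the complement genes C1qa and C1qb and Aif1, beside 68 of all 6371 genes tested, with a list median of -1.17 beside -0.01. In cultured against fresh cells none of the 11 passed (median 0.67 beside 0.02). Against tumor-free cells C1qa, C1qb and C1qc were lower in cultured cells, beside 49 of all 6371 genes (median -0.37 beside 0.03). The part of cell composition in the Mrc1 differences was not tested.

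**Figure D4:**
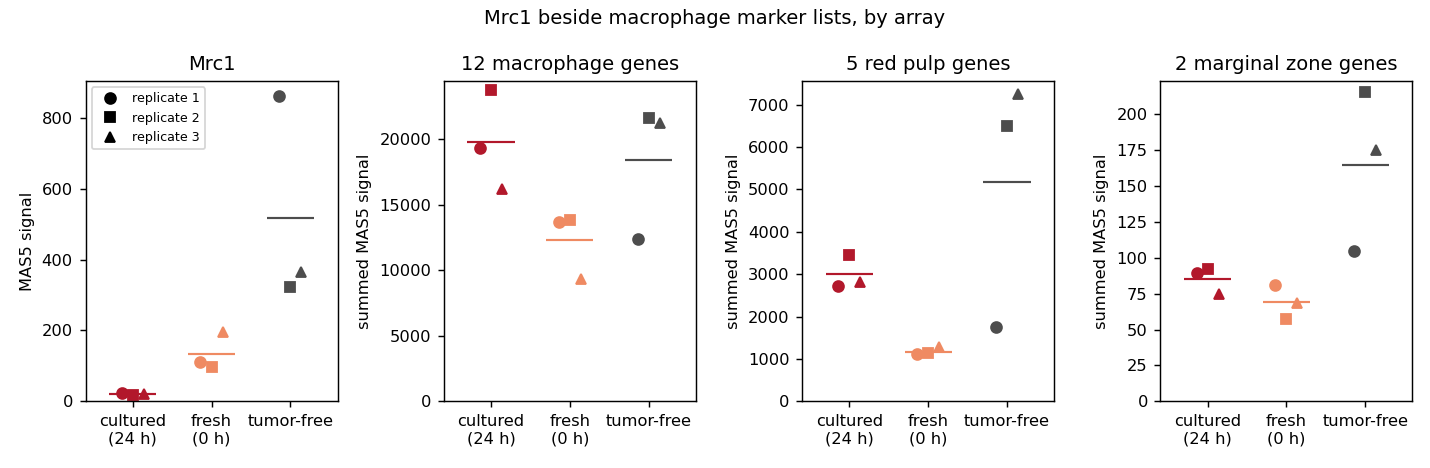
MAS5 signal of Mrc1 and summed signal of 12 macrophage, 5 red pulp and 2 marginal zone marker genes on each array, by group, with symbols for the replicate number and a line at the group mean. Mrc1 is lower on every cultured array (16.8 to 22.7) than on any fresh array (98.3 to 195), whereas the macrophage sum is higher on every cultured array (16240 to 23730) than on any fresh array (9331 to 13840).

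Markers of other cells gave further values beside the Mrc1 step. The summed signal of 8 sinusoidal endothelial markers, cells that can carry the mannose receptor in other organs, was 316 to 517 on cultured, 254 to 401 on fresh and 345 to 560.3 on tumor-free arrays, so the groups overlapped. Neutrophil markers (10 genes) summed to 16110 to 44600, 47720 to 60860 and 34340 to 49340 in the same order of groups, and monocyte markers (7 genes) to 884 to 2831, 2276 to 2490 and 1744 to 3950. B cell markers (8 genes) ranged from 489 to 2101, 1238 to 1468 and 225 to 3207, dendritic cell markers (6) from 1204 to 2226, 701 to 1125 and 1071 to 1920, T and NK cell markers (7) from 183 to 246, 209 to 235 and 192 to 392, and erythroid markers (5) from 677 to 6923, 4645 to 6333 and 480 to 2189. Pancreatic acinar markers (6 genes) summed to 450.2 to 822 on cultured, 6015 to 10360 on fresh and 440 to 694 on tumor-free arrays, and thus set the fresh arrays apart while Mrc1 lay between the other groups there. How far any of these cells contributed to the receptor signals was not tested.

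Among all 6371 genes tested, 56 rose and 68 fell in fresh against tumor-free cells, 90 rose and 70 fell in cultured against fresh cells, and 31 were higher and 49 lower in cultured against tumor-free cells, and the counts of the lists that follow stand beside these. Of 20 other scavenger receptor genes 10 were on the array and 9 were tested. Dmbt1, a scavenger receptor cysteine-rich protein of epithelial secretions, rose in fresh cells (mean signal 945 against 22.6 in tumor-free cells; log2 difference 5.02 ± 0.53, adjusted p = 0.000683) and was lower in cultured than in fresh cells (-4.37 ± 0.53, adjusted p = 0.00194). The pancreatic acinar markers were likewise highest on fresh arrays, and whether the Dmbt1 signal came from CD11b+ cells was not tested. No other gene of the list was called in any comparison. Cd14, the lipopolysaccharide co-receptor gene, had 1.55 in fresh against tumor-free cells (adjusted p = 0.23), and Stab1, an endocytic scavenger receptor gene of macrophages and endothelium, had 1.45 in cultured against fresh cells (adjusted p = 0.382). List medians were 0.25, 0.06 and 0.30 for fresh against tumor-free, cultured against fresh and cultured against tumor-free cells.

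Among C-type lectin receptor genes other than Mrc1, 12 of 31 were on the array and 10 were tested. Clec4e, which encodes the mycobacterial glycolipid receptor Mincle, rose in fresh cells (mean signal 372 against 140.5 in tumor-free cells; log2 difference 1.41 ± 0.31, adjusted p = 0.0484), a call lost on leaving out any single array except tumor-free 1. Cd93, a C-type lectin-like receptor of myeloid and endothelial cells, fell in cultured cells (60.6 against 284 in fresh cells; -2.02 ± 0.44, adjusted p = 0.0375), a call lost without any one of the 6 tumor-bearing arrays or tumor-free 2. Cd72, a B cell lectin gene, had the largest uncalled difference in fresh against tumor-free cells (-2.18, adjusted p = 0.137). Medians were 0.15, 0.39 and 0.41 in the same order of comparisons. None of the 9 tested genes of 13 for lysosomal membrane proteins, the family and compartment of macrosialin, passed in any comparison (medians -0.10, 0.04 and -0.01); Laptm4a reached -1.19 in fresh cells (adjusted p = 0.156).

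Genes for the uptake of particles and dying cells, 20 tested of 27, included 3 that fell in fresh cells, beside 68 of all 6371: C1qa (-2.99), C1qb (-2.91) and the integrin gene Itgb5 (-2.16), with adjusted p of 0.0357, 0.0213 and 0.0178. In cultured against fresh cells none passed, and against tumor-free cells the 3 C1q genes were lower in cultured cells (-3.29 to -3.78). Further probe sets of C1qb (0.48) and Itgb5 (-0.18) did not pass in fresh cells. Most of these calls rested on single arrays. C1qb lost its call against tumor-free cells without tumor-free 2 or 3 in either comparison, and in fresh cells also without any 1 fresh array; C1qa lost both calls without tumor-free 2, tumor-free 3 or cultured 2, the call in fresh cells also without any 1 fresh array and that in cultured cells without cultured 1. C1qc kept its call only without tumor-free 1 or cultured 3, Aif1 lost it without tumor-free 2 or 3 or fresh 2 or 3, and Itgb5 without tumor-free 2 or 3 or fresh 2.

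Regulators of macrophage receptor genes gave 1 rise and 3 falls among 28 tested genes of 35 in fresh against tumor-free cells, beside 56 rises and 68 falls among all 6371. The anti-inflammatory cytokine gene Il10 rose (mean signal 119 against 8.74 in tumor-free cells; log2 difference 3.06, adjusted p = 0.015). The transcription factor genes Cebpd (-1.87, adjusted p = 0.00897), Klf4 (-1.65, adjusted p = 0.0112) and Jun (-1.99, adjusted p = 0.0178) fell. In cultured against fresh cells Il10 was lower (-2.56, adjusted p = 0.0272) and Irf8, a factor of monocyte and dendritic cell development, higher (1.87, adjusted p = 0.0253). Against tumor-free cells Jun (-2.56), Junb (-2.47) and Klf4 (-2.42) were lower in cultured cells, and Jun and Klf4 still passed without any one of the 9 arrays. The call of Cebpd was lost without fresh 1 or 2, of Jun in fresh cells without tumor-free 2 or fresh 2, of Klf4 in fresh cells without tumor-free 2 or 3 or fresh 1 or 2, of Il10 in fresh cells without tumor-free 3 or fresh 1 or 2, and of Junb without tumor-free 2 or 3, fresh 1 or cultured 1 or 2. Il10 and Irf8 lost theirs in cultured against fresh cells without any 1 fresh array or cultured 1 or 2.

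Another 4 of the 28 regulators, Il4ra, Stat6, Spi1 and Pparg, were picked for their known part in Mrc1 expression after their values were seen, and stand for no group. The IL-4 receptor gene Il4ra had 0.73 in fresh against tumor-free cells (adjusted p = 0.528) and -1.14 in cultured against fresh cells (adjusted p = 0.359), and the signal transducer gene Stat6 had -0.43 and -0.02 (adjusted p = 0.42 and 0.98). Spi1, for PU.1, had -0.13, -0.44 and -0.57 in fresh against tumor-free, cultured against fresh and cultured against tumor-free cells (adjusted p = 0.836, 0.489 and 0.395). Pparg, a nuclear receptor of alternatively activated macrophages, had a mean signal of 10.7 in cultured, 8.11 in fresh and 56.1 in tumor-free cells, with differences from tumor-free cells of -1.73 and -1.85 in cultured and fresh cells that missed the threshold (adjusted p = 0.187 and 0.122). Both differences of Pparg passed without tumor-free 1 (limma adjusted p = 0.0212 for cultured and 0.0145 for fresh cells). They also passed without the 3 arrays that stand apart. Those settings called more of all probe sets for cultured and fresh cells against tumor-free cells. The shares were 6.1% and 7.2%, then 20.8% and 24.7%, beside 1.23% and 1.9% as reported. Without tumor-free 2 the adjusted p was 0.501 and 0.402, and without tumor-free 3 it was 0.511 and 0.354. The cultured and fresh means of Pparg lie near the offset.

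**Figure D5:**
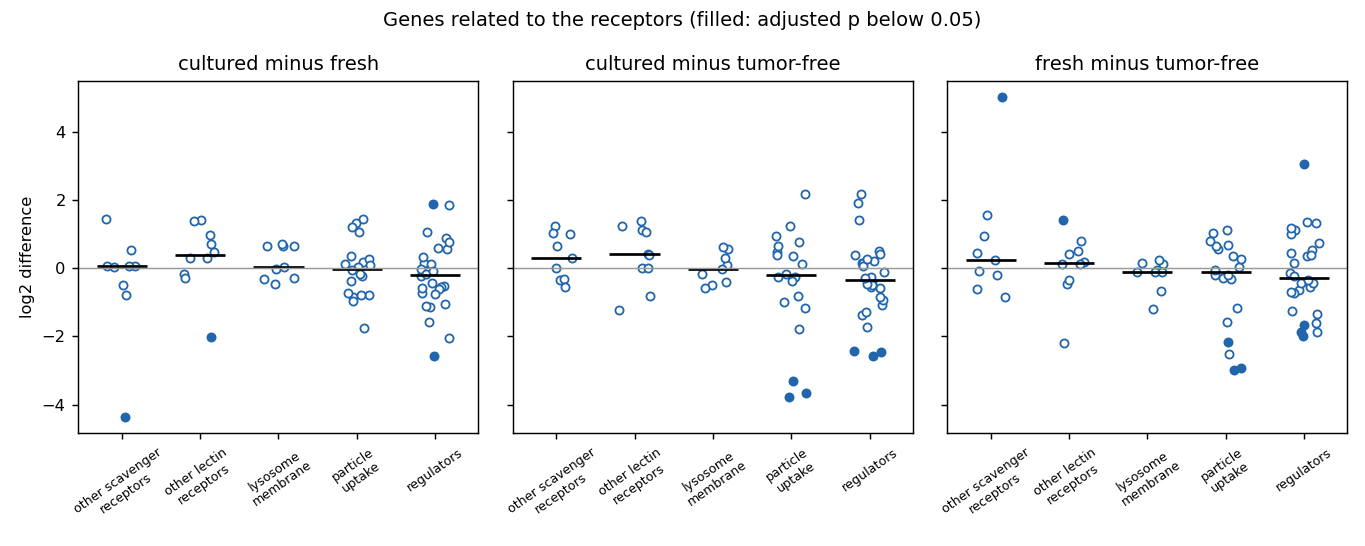
Log2 differences of the tested genes of 5 lists related to the receptors (9, 10, 9, 20 and 28 genes) in the 3 comparisons, filled where the adjusted p was below 0.05, with a bar at the list median. Medians lie between -0.35 and 0.41, and the single highest and lowest points are Dmbt1 in fresh against tumor-free (5.02) and cultured against fresh cells (-4.37).

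The genes most like Mrc1 over the 9 arrays were Ddx5, an RNA helicase gene (r = 0.972), the AP-1 factor gene Fosb (r = 0.967) and Selplg, which encodes the P-selectin ligand of leukocytes (r = 0.960), out of 6368 genes compared by Pearson correlation of log2 values. Fosb had a mean signal of 145.6 ± 50.1 in cultured, 437 ± 24.4 in fresh and 1688 ± 616 in tumor-free cells, Ddx5 of 375 ± 30.4, 656 ± 172 and 847 ± 150.3, and Selplg of 945 ± 21.2, 1525 ± 228 and 1811 ± 43.5. The order of the means is that of Mrc1. In all, 14 genes had an r above 0.9 with Mrc1, 3 with Msr1 and 9 with Cd68. The closest to Msr1 (94792_at) were Eloc (0.920), Mcoln2 (0.917) and Rrp7a (0.906), and to Cd68 (103016_s_at) Adsl (0.951), Tmx2 (0.941) and Thumpd3 (0.940). For Marco they were Elp5 (0.926), Nvl (0.893) and Stmn4 (0.862), on values near the offset. Between members, Mrc1 correlated at -0.13 and -0.19 with the Msr1 probe sets and -0.11 with Cd68, and Cd68 at 0.17 and 0.20 with those of Msr1. All of these share arrays, scaling and group differences, and the closest genes were chosen from all 6368, so they are descriptions of these 9 arrays.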

How the data were processed

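The authors deposited MAS5 signals, an intensity on a linear scale, per the submitters' processing notes; the MAS5 settings were not given in the sources used. The arrays had already been scaled (2% trimmed means of 100.06 to 100.08), and their number limits the precision. An offset of 7.83, the 20th percentile over the whole table, was added and log2 taken, so fold changes of dim probe sets are understated. Tests covered 8695 probe sets, after removal of 66 controls and the dimmest 30%. Group means over all 9 arrays were compared in limma 3.58.1 (R 4.3.3) with an intensity trend, as a two-sided test at 0.05 after Benjamini-Hochberg adjustment across the 8695. The fit was also run on simulated data with independent scatter. Those data hold no array that stands apart, so that run cannot vouch for the fit on these arrays. Symbols came from the platform annotation, and other genes are represented by their probe set with the highest mean. Named besides the members were the 3 genes most correlated with each, and the called and largest-change genes of each list. The members and lists were chosen with earlier results of these data known. Alternatives covered scaling, centring, offset (5th and 40th percentile, 2.11 and 24.7), filter, trend, groups fitted, replicate and spike-in class blocks, and arrays left out. Replicate numbers are not stated to pair the samples. Correlations of same-numbered deviations from the group means were -0.2 to 0.259, and of different-numbered ones -0.282 to 0.263. In cultured minus fresh cells the same-numbered ones were 0.165, 0.0286 and 0.259. With 3 arrays a group these values cannot show whether samples were paired.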

Additional observations from a re-analysis of the deposited data

How the results depend on the processing

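The Mrc1 differences kept their direction under all 21 alternatives, and the cultured minus tumor-free call held under each whose p-value is read. Since the Mrc1 groups do not overlap, leaving out arrays could not turn that direction. Settings that change only the test leave the difference as it is. In fresh minus tumor-free cells the number of member probe sets called, 1 as reported, was 0 with quantile normalization, median centring, no filter, no intensity trend or only the 2 groups compared (Mrc1 adjusted p = 0.0557, 0.067, 0.0558, 0.0553 and 0.0792); the cause was not tested. With single arrays left out, 0 to 1 member was called in fresh minus tumor-free and in cultured minus fresh cells and 1 to 1 in cultured minus tumor-free cells. The corresponding counts of all probe sets ranged from 63 to 623, 74 to 489 and 24 to 529, around 165, 234 and 107 as reported.

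Blocking on the spike-in class, these counts were 277, 556 and 177, and with the 2 groups alone the last was 14. Within the high class they were 411, 1049 and 444 and within the low class 1967, 1393 and 1725. Of the 4 tested member probe sets, 2, 4 and 3 were called in the low class, where both Msr1 probe sets count singly. These fits have 2 and 1 residual degrees of freedom, and their p-values are not read. Without the 3 arrays that stand apart, chosen after seeing the data, the counts were 2147, 1374 and 1810, with 2 members, Mrc1 and Cd68, in fresh minus tumor-free cells. With the replicate number as a replicate block they were 200, 258 and 144, and it changed no member's call.

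The sign of Msr1 turned in several settings, with none of those values called. For 94792_at and 94140_at the fresh minus tumor-free difference was -0.79 and -0.96 within the high class, -0.10 and -0.05 without tumor-free 2, and -0.10 and -0.13 without tumor-free 3. Cultured minus fresh was -0.39 and -0.19 within the high class and without the 3 arrays, and -0.17 and -0.14 without cultured 3; 94792_at alone also turned without fresh 3 (-0.02) or cultured 2 (-0.04). Cultured minus tumor-free was -1.18 and -1.15 within the high class. Cd68 in cultured minus tumor-free cells, near 0 as reported, was 0.32 within the low class and 0.02, 0.05 and 0.10 without tumor-free 2, cultured 1 and cultured 2. Leaving out single arrays moved Msr1 94792_at and 94140_at up to 0.81 and 0.83 in fresh minus tumor-free cells and up to 0.82 and 0.78 in cultured minus fresh cells, and Cd68 in cultured minus tumor-free cells down to -0.23. It moved Mrc1 between -2.09 and -1.36, -2.47 and -2.0, and -4.35 and -3.65 in the 3 comparisons.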
